A study of Mus musculus with 4 samples.

Results

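Myoblasts in S phase were taken from 4 single-cell libraries of cultured mouse muscle stem cells and were chosen by the measured level of 3 transcripts: Pclaf at 7 or more, Mcm3 above 0 and Ube2c at 0 in the deposited log2(CPM + 1) values. CPM is the number of unique molecular identifiers (UMIs, tags that count single captured RNA molecules) of a gene divided by all UMIs of the cell and scaled to counts per 1000000. Of 5913 cells, 115 met the rule, and they are called gate cells here. The cells came from skeletal muscle of wild-type C57BL/6 mice, young or aged, and were kept for 7 days on polydimethylsiloxane, a silicone rubber, made soft (12 kPa) or stiff (29 kPa), in medium with 10% fetal bovine serum. Each age was grown on both substrates. Where 4 values follow each other, they stand for young cells on soft, young on stiff, aged on soft and aged on stiff. All cells had been cultured on silicone and lifted with trypsin, and no library of freshly isolated cells was analysed here. Each group held 1 library, so that age or stiffness and the library itself cannot be told apart, and the labels do not say how many mice stand behind a library. No test between groups was possible, and all differences below describe these libraries.

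Satellite cells, the stem cells of skeletal muscle, express Pax7, and once activated they divide as myoblasts that carry Myod1 and Myf5 before Myog, cell cycle exit and fusion. In G1 the origin recognition complex, Cdc6 and Cdt1 load the MCM ring onto DNA, and E2F factors turn on the genes of replication as cyclin E and Cdk2 become active. In S phase the Cdc45, MCM and GINS helicase opens the DNA, PCNA holds the polymerases in place, and histones are made to wrap the new strands. Pclaf is a PCNA-binding protein, Mcm3 is a subunit of the MCM ring, and Ube2c hands ubiquitin to the anaphase-promoting complex late in the cycle.

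The promoters of 6 replication genes are shown, picked among those that hold E2F binding letters. Most of the highest genes of the gate share this feature, which the rule did not use. The words TTTCCCGC, TTTGGCGC, TTTCGCGC and TTTGCCGC, forms of the E2F binding motif, were searched on both strands in RefSeq promoters of GRCm38.p6, each running from 250 bases before to 50 after a start site. The windows printed run 5′ to 3′ on the gene's strand from 200 bases before the start through the first 10 bases transcribed, in lower case with each matching word in capitals. The Cdc6 window lies at chr11:98907951-98908160, plus strand, with its word 138 bases before the start. The Hells window lies at chr19:38930790-38930999, plus strand, and its word begins 62 bases before the start. The Mcm5 window lies at chr8:75109309-75109518, plus strand, with overlapping words that begin 153 and 149 bases before the start. The Mcm6 window lies at chr1:128359696-128359905, minus strand, with overlapping words at 110 and 106 bases and a further one at 47 bases before the start. The Dtl window lies at chr1:191575535-191575744, minus strand, and its word begins 8 bases before the start. The Pclaf window lies at chr9:65890123-65890332, plus strand, and its word begins 5 bases before the start and crosses it.
Cdc6: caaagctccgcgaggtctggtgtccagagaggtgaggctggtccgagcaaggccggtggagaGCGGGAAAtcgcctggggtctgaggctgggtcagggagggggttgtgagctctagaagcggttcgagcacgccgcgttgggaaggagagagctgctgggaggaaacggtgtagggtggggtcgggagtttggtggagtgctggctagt
Hells: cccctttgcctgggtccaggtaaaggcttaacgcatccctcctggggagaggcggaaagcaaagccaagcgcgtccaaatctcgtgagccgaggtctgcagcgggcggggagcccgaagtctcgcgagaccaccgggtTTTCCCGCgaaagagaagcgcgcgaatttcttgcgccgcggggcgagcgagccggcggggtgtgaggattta
Mcm5: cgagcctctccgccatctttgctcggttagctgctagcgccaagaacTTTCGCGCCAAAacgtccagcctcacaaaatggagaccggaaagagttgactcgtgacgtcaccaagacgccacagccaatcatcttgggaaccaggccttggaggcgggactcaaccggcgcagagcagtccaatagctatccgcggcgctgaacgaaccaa
Mcm6: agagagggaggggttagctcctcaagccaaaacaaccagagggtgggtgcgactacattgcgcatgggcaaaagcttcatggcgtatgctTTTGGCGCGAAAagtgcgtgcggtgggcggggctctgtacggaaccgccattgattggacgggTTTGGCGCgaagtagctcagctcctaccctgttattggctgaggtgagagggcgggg
Dtl: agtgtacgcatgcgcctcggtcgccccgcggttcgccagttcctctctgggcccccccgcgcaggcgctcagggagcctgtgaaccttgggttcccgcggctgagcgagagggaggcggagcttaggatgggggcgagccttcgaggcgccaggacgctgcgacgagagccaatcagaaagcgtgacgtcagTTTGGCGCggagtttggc
Pclaf: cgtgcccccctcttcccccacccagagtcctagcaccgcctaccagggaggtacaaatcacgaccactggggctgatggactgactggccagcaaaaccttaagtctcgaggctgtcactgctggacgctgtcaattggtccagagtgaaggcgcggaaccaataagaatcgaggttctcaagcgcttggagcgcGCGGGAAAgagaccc

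At least 1 of these words stood in 744 of 32851 promoters (2.26%) and in 288 of the 5304 measured genes that had a promoter in the table (5.43%). Among the 12 genes with the highest ratio in gate cells, 10 had a promoter in the table and 9 held a word, the exception being Slfn9. Outside these 12, the promoters of Pcna, E2f1 and Ung held none. Mcm3 of the rule is among the 9, and Pclaf, printed above, is also a gene of the rule. The ranking comes from the contrast that the rule made, so the count is a description only. Of the 12 genes with the lowest ratio, 11 had a promoter and 0 held a word. The MCM and loading list held a word in 9 of 18 promoters, the replication fork list in 9 of 26 and the E2F and G1 to S list in 7 of 18. By contrast 0 of 18 nucleotide supply genes, 1 of 27 genes of G2 and mitosis and 0 of 27 sarcomere genes held one. A match is a run of letters and no evidence of binding, and a window without one holds only other letters.

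The gate held 39 of 1360 young soft cells, 49 of 1481 young stiff cells, 10 of 1333 aged soft cells and 17 of 1739 aged stiff cells. These were 2.87% (exact 95% binomial interval 2.05 to 3.90), 3.31% (2.46 to 4.35), 0.750% (0.360 to 1.38) and 0.978% (0.570 to 1.56). Both young shares lay above both aged shares with no overlap of intervals, while soft and stiff overlapped at either age. Intervals here and below cover counting error only. The last condition of the rule removed most candidates: 810 cells passed on Pclaf and Mcm3, and 695 of them carried a Ube2c UMI. What remained was 12.4%, 15.9%, 11.6% and 17.0% of the Pclaf and Mcm3 positive cells, so the young and aged libraries differed mainly before that step.

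**Figure D1:**
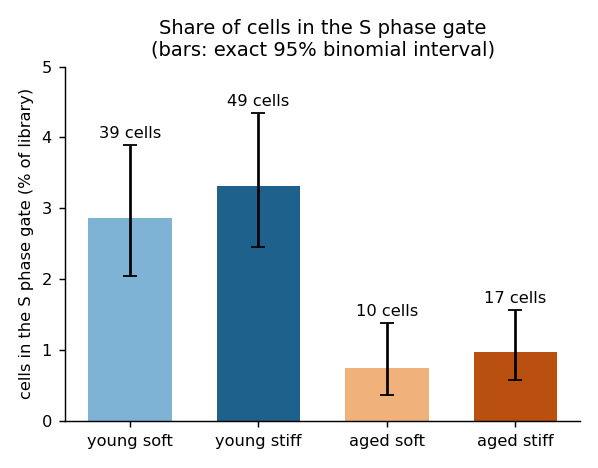
Share of cells in the S phase gate, in percent of all cells of each library, with exact 95% binomial intervals and the number of cells above each bar. The young libraries stand at 2.87% and 3.31%, the aged ones at 0.750% and 0.978%.

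Depth bears on these shares, because an undetected Ube2c molecule passes for a 0. Gate cells had a median of 31098, 23645, 23087.5 and 23059 UMIs and all other cells of 35734, 28838.5, 33407 and 37241.5. With cells thinned to 10000 UMIs, which left out 7, 11, 11 and 2 shallower cells, the shares were 5.17%, 5.10%, 1.59% and 1.55%, with young again above aged. Free RNA was gauged in cells with Ckm, a creatine kinase of mature muscle, at 7 or more, which should not replicate. Of these, 10.2%, 4.76%, 2.91% and 3.38% had a Pclaf UMI, against 34.7%, 30.6%, 13.1% and 11.2% of all cells, at medians of 40882, 32692, 39309.5 and 42013 UMIs in the Ckm-high cells. For Mcm3 the same shares were 6.80%, 6.80%, 9.26% and 7.60% against 36.5%, 32.1%, 15.6% and 16.9%. No gate cell had more than 2 times the median UMIs of its library, 2 gate cells had a Ckm UMI, and no caller was run or doublet removed. The libraries shared 1 cell barcode, and 0 of the gate cells carried it.

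The label of the cells was checked against markers outside the rule, and those of S phase and of myoblasts did not go against it. Hells, a chromatin remodeller of replicating DNA, had a UMI in 108 of the 115 cells and Pcna in 107. Ccne2, which encodes cyclin E2, had one in 100. Hells was found in 18.8% of other cells, Pcna in 39.7% and Ccne2 in 21.1%. Des, the muscle intermediate filament, had a UMI in all 115 cells, Myod1 in 111 and Cdh15, a muscle cadherin, in 108. Other cells had them in 99.9%, 98.1% and 88.9%, so these counts do not set the gate apart. Pax7 was found in 106 gate cells against 39.3% of other cells, and Myf5 in 87 against 54.3%. Contractile genes were also detected, with Mylpf in 87 gate cells, Acta1 in 73, Tnnt3 in 69 and Myl1 in 61. In other cells their shares were 91.9%, 89.3%, 85.4% and 86.4%. Markers of mitosis other than Ube2c were present. Cdc20, which activates the anaphase-promoting complex, had a UMI in 47 gate cells (40.9%) against 17.9% of other cells, and Cenpf, a kinetochore gene, in 46 (40%) against 27.6%. Ccnb1, which encodes cyclin B1, had one in 33 (28.7%) against 17.0%, the kinase gene Plk1 in 28 (24.3%) against 13.1%, and Aurka in 12 (10.4%) against 12.7%. The fibroblast markers Dcn, Lum and Dpt were at 0 in all gate cells, as were Kdr of endothelium, Ptprc, Adgre1, Tyrobp and Fcer1g of leukocytes, Myh11 of smooth muscle and Sox10 of Schwann cells. The summed level of the 6 fibroblast markers, carried by the others of that list, was 237, 203, 309 and 272 CPM in gate cells and 141, 144, 153 and 127 CPM in all other cells. Its part in the results was not tested.

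Near the Pclaf threshold, mean levels of Pcna, Cdc6 and Ccne2 graded with Pclaf. The 37 cells with Pclaf from 6 to 7 that met the other conditions had 66.8 CPM of Pcna, 25.5 CPM of Cdc6 and 68.3 CPM of Ccne2 on average. The 29 gate cells with Pclaf from 7 to 8 had 84.6, 43.3 and 148 CPM of the same genes, and the 62 gate cells at 9 or above had 234, 115 and 458 CPM. Acta1, the skeletal muscle actin, did not follow this order. It averaged 212 CPM in the 37 cells just outside the threshold and 53.4 CPM in the 29 just inside it. The median cell of these bands was at 36.9 and 42.4 CPM. Gate cells with Pclaf from 8 to 9 and at 9 or above averaged 100 and 41.5 CPM of Acta1. Pclaf at 9 or more held for 24 of 39, 28 of 49, 3 of 10 and 7 of 17 gate cells, which is 61.5%, 57.1%, 30% and 41.2%, with wide intervals in the aged libraries of 6.67 to 65.2% and 18.4 to 67.1%.

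Against all other cells, the gate cells stood out by the whole machinery of DNA replication and by the far lower levels of muscle contractile transcripts. Because the rule cut the cells on 3 genes of the same profiles, this contrast is a description and nothing is read from its counts. Ratios are log2 of mean CPM plus 5, averaged with equal weight over libraries, for genes at 20 CPM or more on either side. Of 6671 genes, 685 were at least 2-fold higher (10.3%) and 489 at least 2-fold lower (7.33%), and 668 and 489 of these kept that direction in all 4 libraries. The median gene was 0.24 higher on the log2 scale in gate cells, so gene values are read relative to that shift. Under a scaling to the median of gene ratios, which moves all values by 0.22, 411 genes were higher and 627 lower. The highest genes were Hells (log2 3.27), Mcm3 (3.16), Cdc6 (3.09), Uhrf1 (3.09), Ccne2 (3.03), Slfn9 (2.98), Dtl (2.96), Mcm4 (2.90), Mcm6 (2.88), Mcm5 (2.82), Mcm7 (2.78) and Lig1 (2.76).

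Genes of helicase loading were higher in gate cells. All 21 measured genes of the MCM and loading list were higher, 17 of them at least 2-fold, with a median of 2.35. That list holds Mcm3 of the rule, the fork list holds Pclaf and the list of G2 and mitosis holds Ube2c, and each is in the counts given here. Under the median-of-ratios scaling 20 of the 21 stayed higher. Mcm6, a subunit of the ring, averaged 364, 364, 258 and 307 CPM in gate cells and 67.2, 56.5, 17.0 and 17.6 CPM in other cells. Every library thus had the gate far above its other cells, and the aged libraries had the lower level in both. Mcm5 averaged 199, 227, 118 and 184 CPM in gate cells against 36.8, 31.6, 8.64 and 9.01 CPM. Cdc6, the loading factor that is removed once replication starts, averaged 108, 91.7, 50.1 and 64.2 CPM against 9.23, 6.97, 1.31 and 1.63 CPM. It had a UMI in 77.4% of gate cells and 6.88% of the other cells. Cdt1, its partner in loading, averaged 116, 111, 52.2 and 91.5 CPM against 22.3, 18.5, 7.52 and 6.67 CPM.

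Genes that act at the fork were also higher. All 32 measured members were higher, 29 at least 2-fold, with a median of 1.88. Pcna, the sliding clamp, averaged 199, 171, 155 and 138 CPM in gate cells and 46.5, 35.7, 16.4 and 17.1 CPM in other cells. Lig1, the ligase that joins Okazaki fragments, averaged 270, 330, 230 and 228 CPM against 56.5, 51.4, 16.2 and 15.5 CPM. Both genes varied less between libraries inside the gate than outside it. Rfc3, a subunit of the clamp loader, averaged 235, 213, 205 and 219 CPM against 56.8, 48.3, 24.2 and 22.5 CPM. Prim1, the primase subunit that starts each fragment, averaged 96.6, 96.9, 99.9 and 87.6 CPM against 25.9, 22.5, 8.56 and 8.90 CPM.

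Nucleotide supply and the G1 to S switch were raised to a lesser degree. All 19 measured supply genes were higher, 13 at least 2-fold, with a median of 1.41. Rrm2, the regulated subunit of ribonucleotide reductase, averaged 391, 425, 392 and 356 CPM in gate cells and 146, 126, 73.5 and 66.7 CPM in other cells. The 4 gates lay close together for this gene, with the aged stiff gate lowest. Of 19 measured genes of the G1 to S list, 18 were higher, 15 at least 2-fold, with a median of 1.52. E2f1, which encodes an activating E2F, averaged 129, 151, 112 and 127 CPM against 26.4, 22.3, 7.79 and 8.18 CPM. Ccne2 averaged 327, 424, 207 and 142 CPM against 53.8, 40.5, 11.5 and 11.8 CPM, and its gates lay further apart than those of E2f1.

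**Figure D2:**
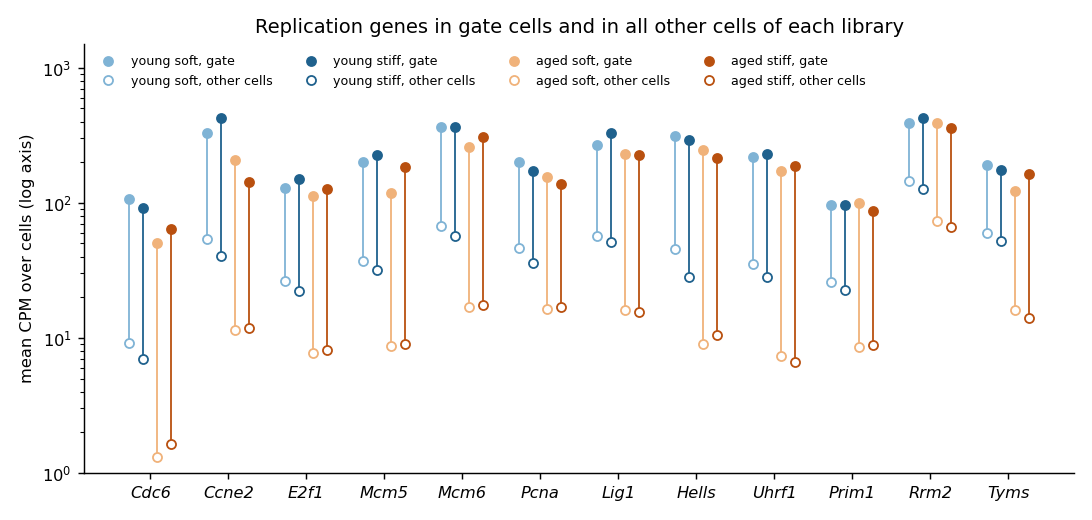
Mean CPM (log axis) of 12 replication genes in gate cells (filled) and all other cells (open) of each library. In each gene and library the gate lies above the other cells, for example Cdc6 at 108 against 9.23 CPM in young soft.

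Chromatin and repair genes showed the same profile. All 21 measured genes of chromatin replication and DNA methylation were higher (19 at least 2-fold, median 1.76) and all 18 of replication stress and repair (17 at least 2-fold, median 1.96). Uhrf1, which brings the maintenance methyltransferase to new DNA, averaged 217, 231, 173 and 187 CPM in gate cells and 35.1, 28.2, 7.40 and 6.66 CPM in other cells. Hells averaged 311, 292, 245 and 216 CPM against 45.4, 28.1, 8.99 and 10.5 CPM. Histone genes were more mixed, with 13 of 16 higher, 6 at least 2-fold, and a median of 0.89. Most replication histone transcripts lack a poly(A) tail, and several histone genes share much of their 3′ sequence, so their levels are uncertain in this 3′ assay.

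Muscle differentiation genes were lower in gate cells. All 32 measured sarcomere genes were at least 2-fold lower, with a median of -4.68, and 14 of 16 genes of commitment and fusion were at least 2-fold lower, with a median of -3.25. The lowest genes were Myl1 (log2 -7.57), Myh1 (-7.26), Myh3 (-7.10), Acta1 (-7.07), Tnnc2 (-7.00), Mylpf (-6.68), Myl4 (-6.59), Cox6a2 (-6.37), Smpx (-6.35), Mef2c (-6.22), Mb (-6.19) and Casq1 (-6.14). Acta1 averaged 43.6, 36.3, 65.6 and 140 CPM in gate cells and 7617, 8139, 11888 and 13522 CPM in other cells. How much of the remainder was free RNA was not tested. Myog, the factor of terminal differentiation, averaged 143, 164, 58.6 and 294 CPM against 1574, 1602, 1924 and 1817 CPM. A Myog UMI was detected in 49 of 115 gate cells, among them 11 of the 17 in aged stiff. The median cell of the first 3 libraries was at 0, and 1 cell held between 28.6% and 64.2% of each library's gate total.

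The inhibitor Cdkn1a, which encodes p21 and blocks cyclin-dependent kinases, was low as well. It averaged 73.8, 98.6, 234 and 238 CPM in gate cells and 1279, 1355, 1633 and 1656 CPM in other cells. Gadd45a, a stress response gene, had a log2 ratio of -2.99. The p53 gene Trp53 lay in the opposite direction, at 144, 191, 162 and 229 CPM in the 4 gates and a log2 ratio of 1.33. Over the whole list of inhibitors and p53 targets 8 of 16 were higher and 8 lower, with a median of -0.01, and under the median-of-ratios scaling 7 were higher and 9 lower.

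Of 20 measured stem cell and myoblast genes, 15 were higher and 7 at least 2-fold so, with a median of 0.81, beside 4353 of the 6671 genes overall that were higher. Pax7 averaged 146, 133, 186 and 182 CPM in gate cells and 70.5, 63.8, 40.7 and 30.6 CPM in other cells, and a UMI was found in 92.2% and 39.3% of them. Myod1 was level with other cells, at 674, 1044, 990 and 860 CPM against 904, 939, 922 and 905 CPM. Hes1, a Notch target, averaged 367, 389, 537 and 64.3 CPM against 166, 167, 104 and 62.5 CPM. Young soft, young stiff and aged soft gates thus lay above their own library for Hes1, and the aged stiff gate did not. Matrix genes were also high, with 24 of 24 above and 15 at least 2-fold, median 1.06, although 2 of the 24 turned lower under the median-of-ratios scaling. Their values against the sets most like the gate, where the difference was small, are given below.

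To place the gate within the cell cycle, it was set against 613 cells with Ube2c at 7 or more and against 1307 Pax7-positive cells with Pclaf under 7 and neither Ube2c nor Mki67. These sets were cut on genes of the rule and the contrasts are likewise descriptions. Against Ube2c-high cells, 31 of 6479 genes were at least 2-fold higher (0.478%) and 174 at least 2-fold lower (2.69%). All 32 measured genes of G2 and mitosis were lower, 31 at least 2-fold, with a median of -2.57. Cenpe, a kinetochore motor, had a log2 ratio of -4.02, Aurka one of -3.87 and Plk1 one of -3.51. Higher in the gate than in Ube2c-high cells were Ung (2.58), a uracil glycosylase that clears misincorporated uracil, Cdc6 (2.30), Dtl (1.83), Hells (1.70) and Ccne2 (1.61). The helicase loading list had 18 of 21 higher with a median of 0.55, and the fork list 27 of 32 with a median of 0.54. Nucleotide supply genes were closer, with 14 of 19 higher and a median of 0.27, and chromatin genes were split, with 9 of 22 higher. Histone genes were lower, 15 of 16, with a median of -0.66.

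Against the non-cycling Pax7-positive cells, 430 of 6668 genes were at least 2-fold higher (6.45%) and 306 at least 2-fold lower (4.59%). Pclaf (log2 5.75) and Mki67 (4.50) had been used to cut the sets, and other high genes were Hist1h2ap (5.10), Top2a (4.96) and Hist1h1b (4.78). All 21 loading genes were higher with a median of 3.04, and 22 of 23 measured genes of G2 and mitosis were higher with a median of 2.47. The sets were cut on Ube2c, Mki67 and Pclaf, so the order of the sets in genes of G2 and mitosis follows from the cuts. Top2a, the decatenating topoisomerase, averaged 449, 468, 306 and 269 CPM in gate cells. In Ube2c-high cells it averaged 1660, 1691, 1294 and 1358 CPM, and in the non-cycling cells 8.81, 7.46, 6.65 and 5.51 CPM. Stem cell and myoblast genes were evenly split in both contrasts, with 10 of 20 higher against Ube2c-high cells (median 0.02) and 9 of 20 against the non-cycling cells (median -0.01). Matrix genes had 20 of 25 higher in each contrast, with medians of 0.15 and 0.18 and 0 at least 2-fold. Their higher level against all other cells was thus largely shared by these 2 sets.

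**Figure D3:**
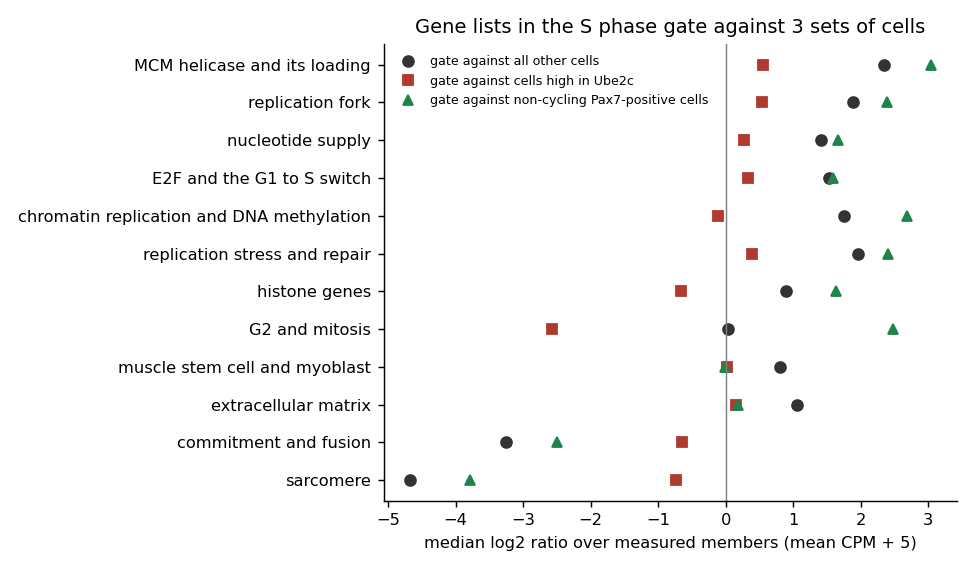
Median log2 ratio over the measured members of 12 gene lists, for gate cells against all other cells (circles), Ube2c-high cells (squares) and non-cycling Pax7-positive cells (triangles). Genes of G2 and mitosis stand at 0.04, -2.57 and 2.47, and sarcomere genes lie to the left of 0 in all 3.

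All 810 Pclaf and Mcm3 positive cells were also ranked by Ube2c UMIs, of which the gate is the class with 0. The 115 cells with 0, the 80 with 1, the 151 with 2 to 4 and the 464 with 5 or more UMIs had medians of 25988, 26283.5, 28822 and 34955 total UMIs. Cdc6 averaged 89.4, 60.5, 62.7 and 15.1 CPM over these classes, and Ung 52.6, 36.7, 31.6 and 4.05 CPM. Ccne2 averaged 330, 294, 311 and 117 CPM, and Mcm6 346, 327, 316 and 173 CPM. All 4 of these early genes were lowest in the last class, and Ccne2 and Mcm6 differed little over the first 3. Top2a averaged 418, 557, 773 and 1891 CPM, Mki67 124, 205, 312 and 736 CPM and Ccnb1 22.7, 36.5, 58.5 and 300 CPM. Pclaf itself stayed between 631 and 756 CPM. The part of depth in this order was not tested.

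**Figure D4:**
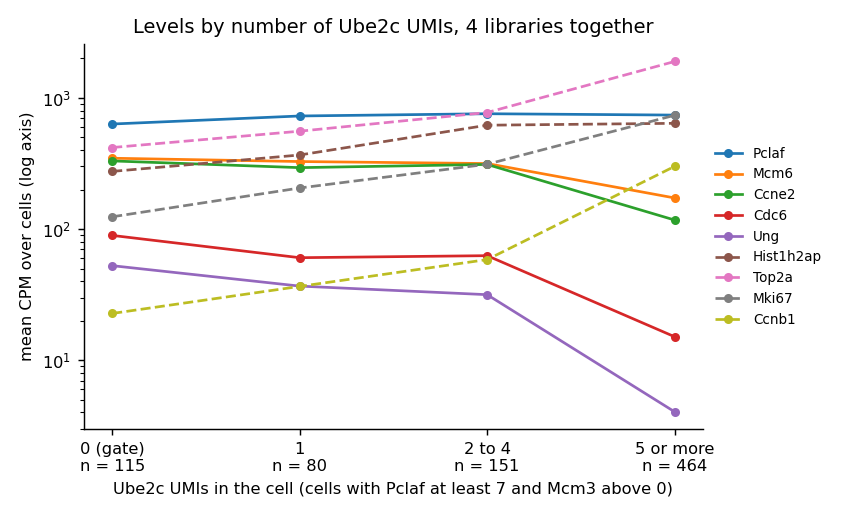
Mean CPM (log axis) of 9 genes in Pclaf and Mcm3 positive cells by their number of Ube2c UMIs, 4 libraries together. Solid lines (Pclaf, Mcm6, Ccne2, Cdc6, Ung) are flat or fall to the right, and dashed lines (Hist1h2ap, Top2a, Mki67, Ccnb1) rise, Top2a from 418 to 1891 CPM.

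Between libraries inside the gate, ratios were taken for genes at 50 CPM or more in either library. The 4 comparisons share libraries pairwise and are not independent of each other. The summed depth of the gate was 1247224, 1174390, 248032 and 397358 UMIs, so that the aged libraries, and the 10 aged soft cells above all, carry the larger counting error. Ratios of summed UMIs are given with an exact 95% conditional binomial interval, which leaves out the spread between cells and libraries.

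Young gate cells on soft and on stiff substrate differed in few genes. Of 3536 genes, 9 were at least 2-fold higher on stiff (0.255%) and 5 at least 2-fold lower (0.141%), and the median ratio was -0.01. The loading list had 8 of 15 higher with a median of 0.00, the fork list 7 of 25 with a median of -0.10 and the sarcomere list 5 of 12 with a median of -0.01. None of the 25 fork genes and none of the 15 loading genes differed by 2-fold. Ccne2, at 327 CPM on soft and 424 on stiff, had a ratio of summed UMIs of 1.22 (1.07 to 1.39). Col1a2, a chain of collagen I, was at 58.4 CPM on soft and 204 on stiff, a ratio of 4.48 (3.40 to 5.98), with a UMI in 12 of 39 and 21 of 49 cells. P3h3, a collagen prolyl hydroxylase family member, was at 24.9 and 109 CPM, a ratio of 4.85 (3.29 to 7.34), but 1 young stiff cell held 34.7% of its total. Myod1 was at 674 and 1044 CPM, a ratio of 1.47 (1.35 to 1.61), while the other cells of these libraries were at 904 and 939 CPM.

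On the lower side in young stiff gate cells were Hist1h2ap and Basp1. Hist1h2ap, a histone H2A gene, averaged 376, 137, 196 and 488 CPM in gates and 182, 50.2, 18.3 and 60.3 CPM in other cells. Of the words of 30 bases in the last 500 bases of its annotated transcripts, 93.4% occur in other genes, which makes its level uncertain. Basp1, which encodes a membrane-associated signalling protein, had a stiff to soft ratio of summed UMIs of 0.507 (0.358 to 0.710). This is just short of 2-fold, while its mean CPM passed that line. It was found in 16 of 39 and 14 of 49 cells.

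In aged gate cells more genes passed the 2-fold line, with 170 of 3731 higher on stiff (4.56%) and 95 lower (2.55%), from 17 and 10 cells. With a Pclaf threshold of 6 these counts were 83 and 58. The replication lists did not move together: 12 of 15 loading genes were higher on stiff with a median of 0.18, 10 of 18 fork genes with a median of 0.10 and 5 of 14 supply genes with a median of -0.13. Hes1 had the lowest ratio of all named genes here. It averaged 537 CPM in aged soft and 64.3 CPM in aged stiff gate cells, a ratio of 0.128 (0.0804 to 0.196). The median cell was at 259 and 43.4 CPM, and the highest of the 17 aged stiff cells was at 297 CPM, while the aged soft cells ran from 43.7 to 1743 CPM. The ranges therefore overlapped, with the aged stiff cells at the low end. In Ube2c-high cells Hes1 averaged 294 CPM in aged soft and 251 CPM in aged stiff, so a gap of that size was not seen in that set.

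Other genes at the extremes of the aged pair were detected in few cells. Aqp5, a water channel, averaged 248 CPM in aged soft and 46.4 CPM in aged stiff gate cells, a ratio of 0.166 (0.0910 to 0.287), with 8 of 10 and 9 of 17 cells positive. Aldh1a2, which makes retinoic acid, averaged 455, 325, 12.1 and 148 CPM in the 4 gates, with a UMI in 25, 26, 2 and 6 cells. Mtss1, a membrane-bending protein gene, had no UMI in the 10 aged soft cells, at least 4.24-fold lower than the 51.3 CPM of aged stiff by a floor of 3 UMIs over the gate. Pgr, the progesterone receptor, was likewise at 0 in aged soft and at 56.2 CPM in aged stiff, where 5 cells carried it. These values rest on single cells to a degree that the counting interval does not show.

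Set by age, most genes of helicase loading, of the fork and of chromatin replication were lower in aged than in young gate cells on both substrates. On soft, 13 of 15 loading genes, 20 of 24 fork genes and 17 of 20 chromatin genes were lower in aged gate cells, with medians of -0.49, -0.37 and -0.29, and 10 of 15 supply genes with a median of -0.15. On stiff, 14 of 16 loading genes, 15 of 23 fork genes and 14 of 15 supply genes were lower, with medians of -0.30, -0.26 and -0.21, and 17 of 21 chromatin genes with a median of -0.13. Histone genes were split, with 7 of 12 higher on soft and 6 of 11 on stiff and medians of 0.05 and 0.03. The lower levels were not limited to replication genes. Of genes of G2 and mitosis, 9 of 13 were lower on soft (3 at least 2-fold, median -0.47) and 8 of 12 on stiff (median -0.16). Over all genes 105 of 3721 were at least 2-fold higher (2.82%) and 154 lower (4.14%) on soft, and 75 of 3667 higher (2.05%) and 55 lower (1.5%) on stiff, and the medians were 0.00 and 0.01. Few list members passed 2-fold: 2 loading genes and 2 fork genes were lower by that much on soft, and 0 of either on stiff. Aged gate cells also had less Pclaf, at 434 and 520 CPM against 636 and 706 CPM, and the part of that difference in the lists was not tested. With Pclaf at 8 or more required, the loading medians were -0.24 on soft and -0.24 on stiff. The fork list on stiff then had 11 higher and 15 lower with a median of -0.11, and the supply list on soft 8 higher and 8 lower with a median of -0.01.

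Ccne2 was lower in aged gate cells on both substrates. Its aged to young ratio of summed UMIs was 0.650 (0.483 to 0.861) on soft and 0.315 (0.233 to 0.419) on stiff. The median gate cell was at 310, 343, 91.7 and 127 CPM, and the highest at 786, 1149, 625 and 559 CPM. A UMI was found in 7 of 10 and 12 of 17 aged cells, and the ranges overlapped, with the highest aged soft cell above the upper quartile of young soft cells (479 CPM). Cdc6 had ratios of 0.592 (0.329 to 0.996) and 0.686 (0.430 to 1.06). Where an interval reaches 1, no direction was detectable at this depth. On soft, E2f1, Gins2, which encodes a helicase subunit, and Rrm2 were nearer to each other across age. Their ratios there were 0.859 (0.553 to 1.29), 1.01 (0.598 to 1.62) and 1.02 (0.821 to 1.27). On stiff, the means of E2f1 and Rrm2 given above were lower in the aged gate.

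The cell cycle inhibitors Cdkn1a and Cdkn2a had higher means in aged gate cells on both substrates. Cdkn1a had an aged to young ratio of 2.58 (1.83 to 3.61) on soft and 2.49 (1.90 to 3.27) on stiff. Its median gate cell was at 60.4, 46.1, 137 and 80.0 CPM, and the highest at 339, 422, 620 and 1160 CPM. A UMI was found in 28 of 39, 35 of 49, 9 of 10 and 13 of 17 cells, and the ranges overlapped. Without the highest cell of each library the log2 ratios were 1.45 on soft and 0.94 on stiff, from 1.60 and 1.23. In all other cells the log2 ratio between aged and young was 0.35 on soft and 0.29 on stiff. Cdkn2a, whose products block Cdk4 and stabilise p53, averaged 43.9, 33.2, 85.4 and 67.5 CPM in the gates, with ratios of 2.03 (1.16 to 3.43) and 1.95 (1.18 to 3.18). Over the list of inhibitors and p53 targets, 7 of 9 measured members were higher in aged cells on soft and 9 of 11 on stiff, with medians of 0.28 and 0.38. Of all genes, 49.7% and 51.6% were higher. At least 2-fold higher were 1 member on soft and 3 on stiff, and 1 was at least 2-fold lower on each. With a Pclaf threshold of 6 the soft pair had 5 higher and 4 lower, and with a threshold of 8 the medians were 0.64 and 0.74.

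**Figure D5:**
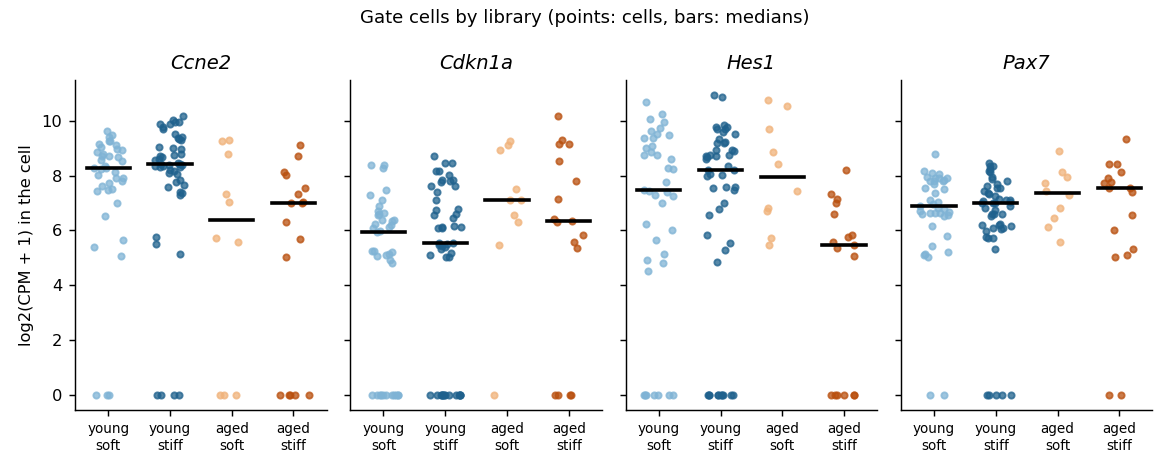
Deposited log2(CPM + 1) of Ccne2, Cdkn1a, Hes1 and Pax7 in every gate cell by library, with bars at the medians. Cells without a UMI lie at 0, Ccne2 medians are lower in the aged libraries, and the 17 aged stiff cells lie low for Hes1.

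Pax7 averaged 186 and 182 CPM in aged gate cells against 146 and 133 CPM in young ones, with ratios of 1.23 (0.867 to 1.71) and 1.28 (0.956 to 1.71). In all other cells the aged libraries had less Pax7, at 40.7 and 30.6 CPM against 70.5 and 63.8 CPM. Neither interval for gate cells excluded 1. The difference between these contrasts was not tested.

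Matrix genes were lower in aged gate cells, with 17 of 22 lower on soft (7 at least 2-fold, median -0.58) and 15 of 20 on stiff (5 at least 2-fold, median -0.43). With a Pclaf threshold of 6 the medians were -0.90 and -0.24. With a threshold of 8 they were -0.75 and -0.24, and the stiff pair had 9 members higher and 11 lower. In the gate as defined, with the 1 soft member that was at 0 in aged cells set at its bound, the soft median was -0.58. Col6a3, a chain of collagen VI, averaged 214, 166, 26.2 and 44.8 CPM, with a UMI in 29 of 39, 35 of 49, 2 of 10 and 6 of 17 cells. Its ratios were 0.114 (0.0416 to 0.252) and 0.244 (0.139 to 0.400), and in all other cells the log2 ratios were -1.78 and -2.25. Col15a1, a basement membrane collagen, was at 53.7 and 25.8 CPM in young gates and had no UMI in 27 aged gate cells, at least 4.44-fold lower on soft and 3.42-fold lower on stiff. Apoe, a lipoprotein gene, was at 77.0 and 139 CPM in young gates and at 0 in both aged ones, at least 6.37-fold and 18.4-fold lower, although 1 cell held 42.0% and 42.8% of the young totals. Id4, an inhibitor of helix-loop-helix factors, averaged 49.5, 77.7, 11.9 and 4.34 CPM and was lower in the other aged cells too, by log2 ratios of -1.60 and -1.67.

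Bok, Thy1 and Myl9 had higher means in aged than in young gates on both substrates. Bok, a Bcl-2 family gene of cell death, averaged 47.0, 65.8, 241 and 118 CPM, with ratios of 4.55 (3.12 to 6.62) on soft and 1.60 (1.09 to 2.33) on stiff. It was found in 9 of 10 aged soft cells, and other cells of the 4 libraries were at 34.6, 35.2, 27.4 and 21.8 CPM. Thy1, a surface glycoprotein, averaged 13.8, 2.49, 97.4 and 51.0 CPM, with 4, 2, 5 and 5 positive cells. Myl9, a smooth muscle and non-muscle myosin light chain, averaged 138, 80.3, 269 and 433 CPM, with ratios of 1.75 (1.29 to 2.34) and 4.95 (3.87 to 6.37).

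Sarcomere transcripts were higher in the aged stiff than in the young stiff gate, with 15 of 17 measured members higher, 9 at least 2-fold, and a median of 1.55. Myl1, a fast myosin light chain, averaged 26.5, 17.6, 33.7 and 115 CPM, a ratio on stiff of 5.91 (3.42 to 10.5). Its level in other cells was 6871, 8011, 11742 and 13755 CPM. A single aged stiff cell held 84.3% of the gate's summed CPM of Ttn, 64.2% of that of Myog and 25.6% of that of Mylpf. For Myl1 and Acta1 the highest cell was not this one and held 28.7% and 23.5%. Without the highest cell of each library for this list, the median was 0.76, and with a Pclaf threshold of 6 it was 0.41, so the size of the difference rests on few cells and on the threshold. The part of free RNA in it was not tested. On soft the same list was split, with 7 of 14 higher and a median of 0.03, but with a Pclaf threshold of 6 it had 14 of 18 higher and a median of 0.43, beside 0.41 on stiff.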

How the data were processed

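Single-cell RNA of 4 libraries was analysed, 1 per group, made with a droplet-based 3′ kit per the labels' protocols. The tools named per the submitters' processing notes are Partek and Cell Ranger 6.1.2, and what each did is not said. The genome build is not given in the sources used here, and the same holds for annotation and cell filters. The deposited tables hold log2(CPM + 1) per cell for 13772 genes, a unit found from the values. UMIs were worked back from the steps between values, and at least 99.95% of values above 0 were whole within 0.05. Libraries held 50361275, 44004654, 47503819 and 68244903 UMIs.

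All deposited cells were used, and doublets were neither called nor removed. CPM was averaged over cells, and log2 ratios carry a pseudocount of 5, which understates low genes, with a floor of 20 CPM (50 CPM between libraries inside the gate). With 1 library per group no p-value was computed. Shares carry exact (Clopper-Pearson) intervals. The members and gene lists were chosen with earlier results of these data known. Genes named by rule were the 12 highest and 12 lowest against all other cells, and the 6 highest and 6 lowest of each comparison inside the gate with a UMI in at least 25% of gate cells of the higher library. The rule also named up to 4 members of each list per comparison, the members of the 4 replication lists and a fixed set of cycle and muscle genes. Genes named only for their place against Ube2c-high or Pax7-positive cells, and marker genes, fall outside it and were named after their values were seen. Some genes that the rule names are not reported here, though they remain in the counts and medians. Calculations used Python 3.11.15, numpy 2.4.6, pandas 2.3.3 and scipy 1.17.1, and the ratio step was checked on simulated data.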

Additional observations from a re-analysis of the deposited data

Results flagged for a closer look

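For 2 of the genes reported here the stiff to soft ratio of mean CPM ran in opposite directions in young and aged gates. It was at least 2-fold each way, and the difference was not tested because each group held 1 library. Hist1h2ap differed by 2.72 (log2, aged minus young) and Basp1 by 2.67. For Hist1h2ap the other cells were at 182 and 50.2 CPM (young, soft and stiff) and at 18.3 and 60.3 CPM (aged, soft and stiff). Basp1, which encodes a membrane-associated signalling protein, averaged 98.6, 43.0, 31.5 and 103 CPM in gate cells and 36.7, 28.9, 29.7 and 18.1 CPM in other cells. In aged soft 2 gate cells carried Basp1 and 1 of them held 87.4% of its total.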

How the results depend on the processing

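No paired analysis was possible because each group held 1 library. Without the Ube2c condition the shares were 23.2%, 20.9%, 6.45% and 5.75% (young on soft and stiff, then aged on soft and stiff), and thinned to 10000 UMIs the first 3 were 5.17%, 5.10% and 1.59%, with young above aged in each case. Leaving out each library in turn, genes higher in gate cells numbered 545 to 870 and genes lower 467 to 524, and with median-of-ratios scaling 411 were higher. Inside the gate the counts depended on the floor and on the threshold. With no floor the higher and lower counts were 78 and 93 for young stiff against soft, 1171 and 760 for aged stiff against soft, 510 and 1179 for aged against young on soft, and 355 and 577 on stiff. A pseudocount of 1 or summed UMIs gave 9 lower genes for young stiff against soft. A Pclaf threshold of 6 gave 83 and 58 for aged stiff against soft. A threshold of 8 gave 14 lower for young stiff against soft, 236 lower for aged stiff against soft, 200 and 259 for aged against young on soft, and 113 and 107 on stiff. The causes were not tested. In an alternative chosen after seeing the data, each library's highest gate cell for the gene was left out, and Gmcl1 turned to 0.001 (log2, aged stiff against soft). Depth limits the aged soft gate most, with 10 cells.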

Other observations

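Growth genes were higher in gate cells more often than genes as a whole. Of 27 measured genes of ribosome biogenesis and growth 23 were higher than in all other cells, 7 of them at least 2-fold. Their median log2 ratio was 0.60, and 20 were higher under the median-of-ratios scaling. Of all genes 65.3% were higher and 10.3% at least 2-fold so, with a median of 0.24. Ncl, the nucleolar protein nucleolin, averaged 1216, 1182, 1230 and 1106 CPM in gate cells (young on soft and stiff, then aged), and 565 CPM over the other cells of the 4 libraries. Srm, spermidine synthase, averaged 127, 153, 135 and 106 CPM against 48.1 CPM. Ncl differed little between the 4 gates, while Srm ranged from 106 to 153 CPM. Over all 25 measured genes of this list the aged to young medians were 0.02 on soft and -0.09 on stiff.

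Respiration genes were lower in gate cells than in all other cells, with 23 of 28 lower and a median of -0.25, or 27 of 28 under the median-of-ratios scaling. Cox8b, a muscle isoform of cytochrome oxidase, had a log2 ratio of -5.75, while mt-Nd1, encoded in mitochondrial DNA, had one of 0.05. Between aged and young gates on soft, 21 of 25 were higher in aged cells with a median of 0.27, and on stiff 16 of 25 with a median of 0.09. Genes of the actin cytoskeleton and targets of the mechanosensitive factor YAP were higher than in all other cells in 20 of 27 cases (19 under the median-of-ratios scaling), 12 at least 2-fold, with a median of 0.78, beside 4353 of 6671 genes overall that were higher and a median of 0.24. Inside the gate, 12 of 20 were higher on stiff in young cells with a median of 0.02, and 8 of 21 in aged cells with a median of -0.15. RNA decay genes had a median of 0.38 in gate cells against 0.24 over all genes. Of 46 measured, 38 were higher, beside 65.3% of all genes. Inside the gate their medians were -0.03 and -0.02 for stiff against soft in young and aged cells, and 0.11 and 0.08 for aged against young on soft and stiff.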
